A study of Saccharomyces cerevisiae with 11 samples.

Results

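The 37 genes described here build the peroxisome of *Saccharomyces cerevisiae* or carry out the breakdown of fatty acids inside it. A gene was included when the symbol annotated to its probe set was PEX followed by a number, or when it was *POX1*, *FOX2*, *POT1*, *FAA2*, *CAT2*, *PXA1*, *PXA2*, *ECI1*, *DCI1*, *TES1*, *OAF1* or *PIP2*. This gave 37 of the 5449 yeast genes measured, namely 25 peroxins (PEX genes, for peroxisome biogenesis) and the 12 other genes. Each had 1 probe set, and none of these carried the maker's mark for sequence shared with other genes. RNA was hybridised to 11 Affymetrix yeast arrays, of *rna14-1* cells (3 arrays), *rna15-1* cells (3 arrays) and wild-type cells (5 arrays). *RNA14* and *RNA15* encode subunits of cleavage factor I (CFI), which acts in messenger RNA 3′-end formation and transcription termination, and the study asked whether expression changes in these mutants could account for their sensitivity to DNA damage. By the labels, each strain was W303-1B of mating type MATa with the marker alleles *trp1-1*, *leu2-3*,*112*, *his3-11,15*, *ade2-1* and *ura3-1*. The mutants additionally carried the point-mutation allele *rna14-1* or *rna15-1*. All cells had been taken at mid-log phase in YPAD, a rich glucose medium (the methods name YEPD), at 30 °C. The labels call the arrays biological replicates, but do not say whether these were separate transformants or days, so p-values measure the spread between these cultures only.

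Peroxisomes are the only site of fatty acid beta-oxidation in yeast. Fatty acids enter as CoA esters or are activated inside, are shortened in a cycle of oxidation, hydration, a further oxidation and thiolysis, and the acetyl units leave for the mitochondria. Yeast genes for this pathway are known to be repressed on glucose and induced on oleate, through the zinc-cluster pair Oaf1 and Pip2 and the factor Adr1. Peroxins recognise newly made matrix proteins in the cytosol, dock them at the membrane, recycle the receptors with the help of ubiquitin, insert membrane proteins, and set the size and number of the organelles.

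The deposited values were log2 intensities after robust multiarray averaging (RMA), on which a difference of 1 is a doubling of the signal. Array medians over all genes lay between 10.34 and 10.40, and the background, taken from probe sets for other species, between 4.19 and 4.44. All 37 genes were above it on every array but wild-type replicates 1 and 2, where 36 and 35 were. Correlations across genes were 0.993 to 0.997 among *rna14-1* arrays, 0.964 to 0.997 among *rna15-1* arrays and 0.981 to 0.996 among wild-type arrays, and *rna15-1* replicate 3 stood apart from replicates 1 and 2 of its strain. Wild-type replicates 1 and 2 correlated at 0.994 and replicates 3 to 5 at 0.991 to 0.996, against 0.981 to 0.989 between these sets. Mating-type markers went against the MATa entry of the labels. All 5 MATalpha markers, among them the α-factor genes, lay between 11.42 and 13.47 in *rna14-1*, between 12.96 and 14.21 in *rna15-1* and between 12.02 and 13.45 in wild type. The 7 MATa markers lay between 8.31 and 12.27 in *rna14-1* and between 8.46 and 12.19 in *rna15-1*, against 5.35 to 8.30 in wild type, and all 7 rose in each mutant. The arrays of each mutant therefore carried a-specific and α-specific transcripts together. An effect of the alleles on the peroxisomal genes cannot be told apart from any difference in mating type between the cultures. RNA of whole cultures also cannot tell a change in the share of cells that express a gene from a change in the RNA per cell.

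More of the 37 genes were higher than lower in each mutant than in wild type. Rose and fell stand below for a Benjamini-Hochberg adjusted p under 0.01 from limma, fitted over all 5449 genes. In *rna14-1* 23 of the 37 rose and 5 fell, against 32.8% and 29.5% of all genes tested. In *rna15-1* 20 rose and 5 fell, against 28.2% and 24.7% of all genes. The median log2 fold change of the 37 was 0.55 in *rna14-1* and 0.35 in *rna15-1*, where the medians of all genes were 0.0035 and 0.028. Every array of *rna14-1* lay above every wild-type array for 24 members and below for 5 (37.7% and 36.1% of all genes). For *rna15-1* these counts were 19 and 5 (32.6% and 29.1%). The stricter thresholds of the methods (adjusted p under 0.01, B-statistic over 2, average intensity A over 7 and over 2-fold) called 6 members up in *rna14-1*, *CAT2*, *FOX2*, *PEX21*, *PEX30*, *POT1* and *PXA2*, and *PEX2* down, 7 in all (10.1%, 7.96% and together 18% of all genes). In *rna15-1* they called 3 up, *DCI1*, *PEX21* and *PEX34*, and 0 down (6.53%, 5.32% and together 11.9% of all genes, limma), where 5 members fell by the adjusted p alone and 5 by an unadjusted p under 0.05. *PEX18* and *POX1* could not be called by that rule, since their A was 5.66 and 5.67.

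The 12 members other than peroxins, called the fatty acid genes here, are 10 genes of breakdown, transport and activation and the regulatory pair *OAF1* and *PIP2*, and they had larger median fold changes than the peroxins. In *rna14-1* 9 of the 12 rose and 0 fell by limma (0 also at an unadjusted p under 0.05), with a median log2 fold change of 1.26, while 14 of the 25 peroxins rose and 5 fell, with a median of 0.39. In *rna15-1* 8 of the 12 rose and 1, *OAF1*, fell (median 0.79), while 12 peroxins rose and 4 fell (median 0.31). Without the pair, the median of the other 10 was 1.31 in *rna14-1* (9 rose) and 1.00 in *rna15-1* (8 rose). Both comparisons use the same 5 wild-type arrays, so they are not independent of each other.

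**Figure D1:**
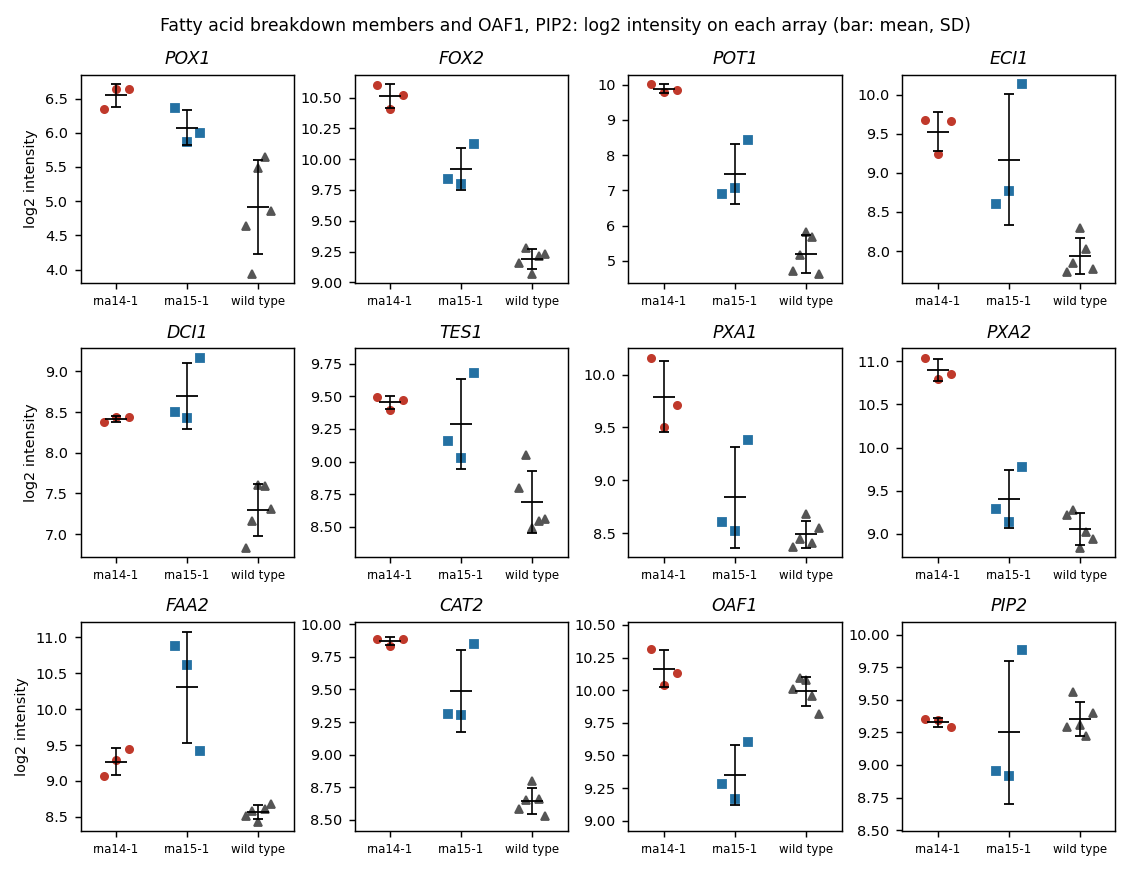
Log2 intensity (vertical axes, each with its own range) of the 12 fatty acid genes (*OAF1* and *PIP2* encode their regulators) on the *rna14-1* (circles), *rna15-1* (squares) and wild-type (triangles) arrays, with the mean and SD of 3, 3 and 5 arrays. *POT1* lay between 9.79 and 10.02 in *rna14-1* and between 4.63 and 5.82 in wild type, and *OAF1* was lower in *rna15-1* than in either other strain.

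The 3 enzymes of the core cycle rose in both mutants. *POT1* (YIL160C, chromosome IX), the ketoacyl-CoA thiolase that ends each round, had log2 intensities of 10.02, 9.79 and 9.85 on the *rna14-1* arrays, 6.90, 7.05 and 8.44 on the *rna15-1* arrays, and 4.70, 5.16, 5.82, 5.67 and 4.63 on the wild-type arrays. The 3 strains did not overlap. The log2 fold change against wild type was 4.69 ± 0.37 in *rna14-1* (standard error, adjusted p = 1.1e-06, limma), a 25.9-fold difference, and 2.27 ± 0.37 in *rna15-1* (adjusted p = 0.00027). It was the largest change of any of the 37 in either mutant. All 5 wild-type arrays were above background for *POT1*. Replicates 1 and 5, at 4.70 and 4.63, stood close to their backgrounds of 4.37 and 4.44, which limits the fold.

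*FOX2* (YKR009C, chromosome XI), the multifunctional enzyme of the hydration and the following oxidation, had 10.60, 10.41 and 10.52 in *rna14-1*, 9.84, 9.80 and 10.12 in *rna15-1*, against 9.16, 9.28, 9.07, 9.22 and 9.23 in wild type. Again no strain overlapped another, and the fold changes were 1.32 ± 0.09 in *rna14-1* and 0.73 ± 0.09 in *rna15-1* (log2 ± standard error, adjusted p = 3.9e-07 and 3.2e-05, limma). *POX1* (YGL205W, chromosome VII), the acyl-CoA oxidase that opens the cycle, had 6.35, 6.64 and 6.64 in *rna14-1*, 6.36, 5.86 and 5.995 in *rna15-1*, against 4.64, 3.94, 5.48, 5.65 and 4.85 in wild type. The mutants overlapped each other and lay above all wild-type arrays, 4 of which were above background. On the log2 scale it rose in *rna14-1* by 1.63 ± 0.33 and in *rna15-1* by 1.16 ± 0.33. The *rna15-1* value stood close to the threshold (adjusted p = 0.0090, limma) and missed it without any array of *rna14-1* or *rna15-1*, or without wild-type replicate 1 or 5 (log2 1.02 to 1.27, adjusted p 0.013 to 0.040). With quantile normalisation of all genes *POX1* passed in neither mutant (log2 0.68 in *rna14-1*, adjusted p = 0.039, and 0.84 in *rna15-1*, adjusted p = 0.017).

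The 3 auxiliary enzymes, which make unsaturated fatty acids or CoA esters fit for the cycle or split them, also rose in both mutants. *ECI1* (chromosome XII), an enoyl-CoA isomerase, had 9.67, 9.24 and 9.67 in *rna14-1*, 8.61, 8.76 and 10.13 in *rna15-1*, against 7.74, 7.85, 8.29, 8.03 and 7.78 in wild type. *DCI1* (chromosome XV), its paralog and a dienoyl-CoA isomerase, had 8.37, 8.45 and 8.43 in *rna14-1*, 8.50, 8.43 and 9.17 in *rna15-1*, against 6.83, 7.16, 7.60, 7.59 and 7.31 in wild type. Each mutant array of both genes lay above each wild-type array. The log2 fold changes of *ECI1* were 1.59 ± 0.30 in *rna14-1* cells and 1.23 ± 0.30 in *rna15-1* cells, and for *DCI1* they were 1.12 ± 0.20 in *rna14-1* cells and 1.40 ± 0.20 in *rna15-1* cells (adjusted p at most 0.0039, limma). Without *rna15-1* replicate 3 the value of *ECI1* in *rna15-1* was 0.75 (adjusted p = 0.0026). *TES1*, a peroxisomal thioesterase on chromosome X, rose in *rna14-1* by 0.76 ± 0.16 and in *rna15-1* by 0.60 ± 0.16 (adjusted p = 0.0013 and 0.0069). In *rna15-1* its lowest array, at 9.03, lay below the highest wild-type array, at 9.05. That rise missed the threshold when any array other than *rna15-1* replicate 2 or wild-type replicate 2 was left out (log2 0.40 to 0.66, adjusted p 0.010 to 0.027).

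Of the 4 genes of entry, activation and export of acetyl units, *CAT2* rose in both mutants, the transporter genes *PXA1* and *PXA2* in *rna14-1*, and *FAA2* in *rna15-1*. *PXA2* (chromosome XI), a subunit of the ABC transporter for long-chain fatty acids, had 11.04, 10.79 and 10.86 in *rna14-1*, 9.29, 9.14 and 9.78 in *rna15-1*, against 9.21, 9.27, 8.84, 9.02 and 8.94 in wild type. *PXA1* (chromosome XVI), the partner subunit, had 10.16, 9.50 and 9.71 in *rna14-1*, 8.61, 8.52 and 9.38 in *rna15-1*, against 8.37, 8.45, 8.68, 8.40 and 8.54 in wild type. In *rna14-1* neither gene overlapped with wild type and both rose, *PXA2* by 1.84 ± 0.15 and *PXA1* by 1.30 ± 0.20 (log2, adjusted p = 1.3e-06 and 0.00014, limma). In *rna15-1* replicates 1 and 2 lay within or beside the wild-type range for each gene, and the log2 fold changes were 0.34 ± 0.15 for *PXA2* and 0.35 ± 0.20 for *PXA1* (adjusted p = 0.060 and 0.14).

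*CAT2* (chromosome XIII), the carnitine acetyltransferase of peroxisomes and mitochondria, had 9.89, 9.83 and 9.89 in *rna14-1*, 9.31, 9.30 and 9.85 in *rna15-1*, against 8.58, 8.65, 8.80, 8.66 and 8.53 in wild type. It rose in both mutants, by 1.23 ± 0.12 in *rna14-1* and, in *rna15-1*, by 0.84 ± 0.12 on the log2 scale (adjusted p = 5e-06 and 0.00011). *FAA2* (chromosome V), the peroxisomal acyl-CoA synthetase for medium-chain fatty acids, had 9.07, 9.29 and 9.45 in *rna14-1*, 10.88, 10.61 and 9.42 in *rna15-1*, against 8.51, 8.58, 8.44, 8.62 and 8.68 in wild type. All mutant arrays were above all wild-type arrays. The gene rose in *rna15-1*, by 1.74 ± 0.26 (adjusted p = 0.00016), and had 0.71 ± 0.26 in *rna14-1* (adjusted p = 0.030). Without *rna15-1* replicate 3 the *rna14-1* value passed the test (0.71, adjusted p = 8.6e-05), since the spread is shared by all strains in the fit. Relative to the wild-type mean, chromosome V genes had medians of 0.72, 0.67 and 0.04 on *rna15-1* replicates 1, 2 and 3. The part of this shift in the *FAA2* value was not tested.

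Neither gene of the Oaf1-Pip2 pair passed the test for an increase. *OAF1* (chromosome I) had 10.32, 10.04 and 10.14 in *rna14-1*, 9.28, 9.17 and 9.60 in *rna15-1*, against 10.01, 10.09, 10.08, 9.96 and 9.82 in wild type. All *rna15-1* arrays were below all others, and *OAF1* fell there by 0.64 ± 0.11 on the log2 scale (adjusted p = 0.0004, limma), while *rna14-1* had 0.17 ± 0.11 (adjusted p = 0.18). *PIP2* (chromosome XV) had 9.35, 9.35 and 9.29 in *rna14-1*, 8.96, 8.92 and 9.88 in *rna15-1*, against 9.29, 9.56, 9.30, 9.22 and 9.40 in wild type. The *rna15-1* arrays lay on either side of the other strains, and neither log2 fold change passed the test (−0.03 in *rna14-1* and −0.10 in *rna15-1*). Without *rna15-1* replicate 3 *PIP2* fell in *rna15-1* by 0.42 (adjusted p = 0.0016).

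**Figure D2:**
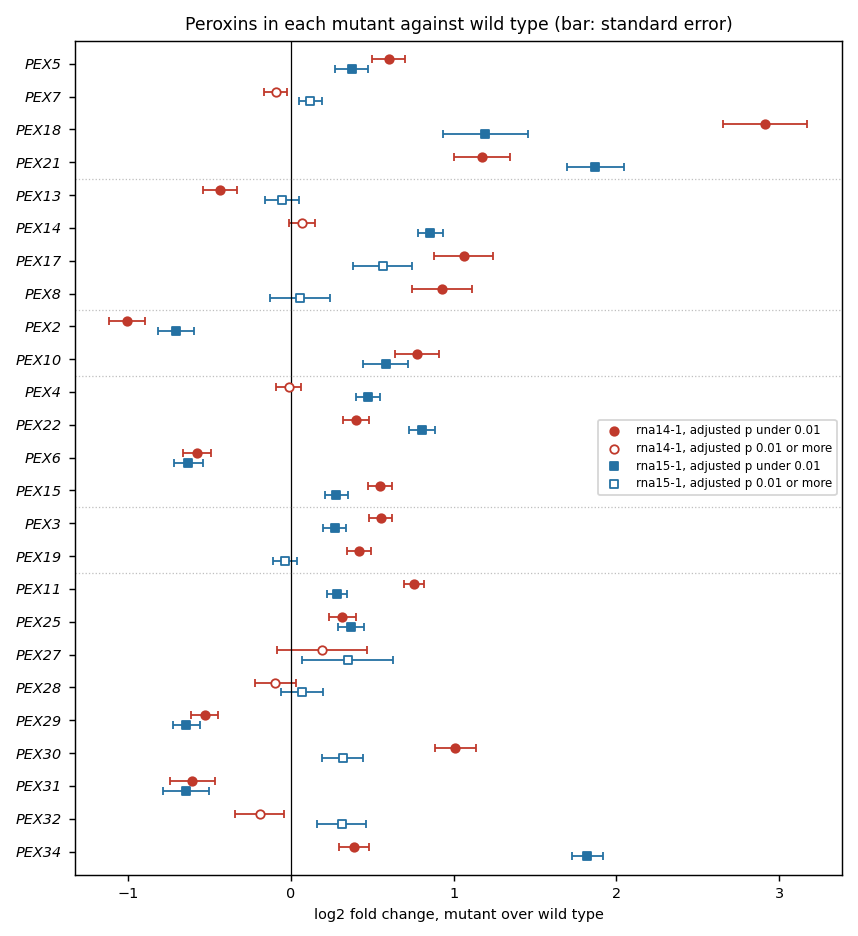
Log2 fold change (horizontal axis) of the 25 peroxins in *rna14-1* (circles) and *rna15-1* (squares) against wild type, grouped from the top as receptors, docking, RING ligases, receptor ubiquitylation and export, membrane insertion, and size and number; bars are standard errors and filled symbols have an adjusted p under 0.01. *PEX18*, *PEX21* and *PEX34* lie furthest to the right, and *PEX2* furthest to the left.

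Among the peroxins, the co-receptor genes *PEX18* in *rna14-1* and *PEX21* in *rna15-1* had the largest increases. Pex7 binds the amino-terminal targeting signal that the thiolase Pot1 carries, and Pex18 and Pex21, which are paralogs, are its co-receptors. *PEX18* (YHR160C, chromosome VIII) had log2 intensities of 7.45, 7.43 and 7.48 in *rna14-1*, 5.32, 5.40 and 6.48 in *rna15-1*, against 4.20, 4.27, 5.04, 4.54 and 4.65 in wild type, where 3 of 5 arrays were above background. *PEX21* (YGR239C, chromosome VII) had 10.87, 10.81 and 10.87 in *rna14-1*, 11.25, 11.29 and 12.12 in *rna15-1*, against 9.48, 9.70, 9.75, 9.66 and 9.81 in wild type. The strains did not overlap for either gene, but their order differed: *PEX18* was highest in *rna14-1* and *PEX21* in *rna15-1*. *PEX18* rose in *rna14-1* by 2.91 ± 0.26 and in *rna15-1* by 1.19 ± 0.26 (log2, adjusted p = 2.7e-06 and 0.0020, limma). *PEX21* rose in *rna14-1* by 1.17 ± 0.17 and in *rna15-1* by 1.87 ± 0.17 (adjusted p = 0.0001 and 5e-06). *PEX7* itself did not pass in either mutant, with log2 fold changes of −0.09 ± 0.07 for *rna14-1* and 0.12 ± 0.07 for *rna15-1* (adjusted p = 0.26 and 0.17). *PEX5*, the receptor for the carboxy-terminal signal used by most matrix proteins, rose in *rna14-1* by 0.60 ± 0.10 and in *rna15-1* by 0.37 ± 0.10. The *PEX5* rise in *rna15-1* (adjusted p = 0.0072) missed the threshold without *rna14-1* replicate 2 or 3, *rna15-1* replicate 1 or 2, or wild-type replicate 2, 3 or 4 (adjusted p 0.010 to 0.036).

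The docking genes moved apart from each other. *PEX17* (chromosome XIV), which encodes a docking subunit, had 9.15, 9.05 and 9.19 in *rna14-1*, 8.47, 8.52 and 8.89 in *rna15-1*, against 7.67, 8.57, 8.22, 8.02 and 7.84 in wild type. Its *rna15-1* arrays overlapped with wild-type replicate 2 only. It rose by 1.06 ± 0.18 in *rna14-1* (adjusted p = 0.0003) and had 0.56 ± 0.18 in *rna15-1* (adjusted p = 0.017), which passed the test without wild-type replicate 2 (0.69, adjusted p = 0.0019). *PEX14*, the main docking protein for receptors with cargo, rose by 0.86 ± 0.08 in *rna15-1* (adjusted p = 5.1e-06) and had 0.07 ± 0.08 in *rna14-1* (adjusted p = 0.44). *PEX13*, the SH3-domain docking subunit, fell by 0.44 ± 0.11 in *rna14-1* (adjusted p = 0.0032) and had −0.05 ± 0.11 in *rna15-1*. The fall of *PEX13* missed the threshold without *rna14-1* replicate 1 or 3 (adjusted p = 0.017 and 0.018). *PEX8*, which links docking and RING complexes from the matrix side, rose by 0.93 ± 0.18 in *rna14-1* (adjusted p = 0.00083) and had 0.06 ± 0.18 in *rna15-1*.

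The genes of the ubiquitin ligases in the membrane went in opposite directions. *PEX2* (YJL210W, chromosome X) had 9.08, 8.95 and 8.85 in *rna14-1*, 9.44, 9.40 and 8.93 in *rna15-1*, against 9.998, 9.98, 9.93, 9.97 and 9.95 in wild type, so that every mutant array lay below every wild-type array. It fell in *rna14-1* by 1.01 ± 0.11 and in *rna15-1* by 0.71 ± 0.11 (adjusted p = 1.1e-05 and 0.0002, limma), the largest decrease of the 37 in either mutant. *PEX10* rose in *rna14-1* by 0.77 ± 0.14 and in *rna15-1* by 0.58 ± 0.14 (adjusted p = 0.00041 and 0.0033). Of the export machinery, *PEX22*, whose product anchors the ubiquitin-conjugating enzyme Pex4, rose in *rna14-1* by 0.40 ± 0.08 and in *rna15-1* by 0.81 ± 0.08 (adjusted p = 0.00088 and 7.8e-06). *PEX4* rose by 0.47 ± 0.08 in *rna15-1* (adjusted p = 0.00028) and had −0.01 ± 0.08 in *rna14-1*, where it fell by 0.49 with quantile normalisation (adjusted p = 3.5e-05). *PEX6*, an AAA ATPase that pulls receptors out of the membrane, fell in *rna14-1* by 0.58 ± 0.09 and in *rna15-1* by 0.63 ± 0.09 (adjusted p = 0.00014 and 0.0001). *PEX15*, which encodes its membrane anchor, rose in *rna14-1* by 0.55 ± 0.07 and in *rna15-1* by 0.28 ± 0.07 (adjusted p = 4.3e-05 and 0.0054). The *PEX15* rise in *rna15-1* missed the threshold without *rna15-1* replicate 1 or 2, or wild-type replicate 1 or 5 (adjusted p 0.011 to 0.020).

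*PEX3* and *PEX19*, whose products receive membrane proteins at the organelle and in the cytosol, rose in *rna14-1*, by 0.55 ± 0.07 and 0.42 ± 0.08 (adjusted p = 4e-05 and 0.00046). In *rna15-1* *PEX3* rose by 0.27 ± 0.07 (adjusted p = 0.0064) and *PEX19* had −0.04 ± 0.08. The *PEX3* rise in *rna15-1* missed the threshold without *rna14-1* replicate 3, *rna15-1* replicate 1 or 2, or wild-type replicate 3, 4 or 5 (log2 0.21 to 0.27, adjusted p 0.011 to 0.038).

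Of 9 peroxins that set the size and number of peroxisomes, *rna14-1* had 4 up and 2 down, and *rna15-1* had 3 up and 2 down, where 32.8% and 29.5% of all genes rose and fell in *rna14-1* and 28.2% and 24.7% in *rna15-1*. *PEX34* (YCL056C, chromosome III), a membrane protein of peroxisome proliferation, had 10.92, 10.92 and 11.04 in *rna14-1*, 12.24, 12.33 and 12.61 in *rna15-1*, against 10.50, 10.43, 10.64, 10.63 and 10.66 in wild type. No strain overlapped another. It rose by 1.82 ± 0.09 in *rna15-1* (adjusted p = 1e-07, limma) and by 0.39 ± 0.09 in *rna14-1* (adjusted p = 0.0032), where it missed the threshold without *rna14-1* replicate 3 (0.35, adjusted p = 0.019). *PEX30* (chromosome XII), which encodes a reticulon-like protein of the endoplasmic reticulum, had 11.24, 11.03 and 10.97 in *rna14-1*, 10.24, 10.20 and 10.72 in *rna15-1*, against 9.97, 10.04, 10.25, 10.13 and 9.95 in wild type. It rose by 1.01 ± 0.13 in *rna14-1* (adjusted p = 3e-05), and had 0.32 ± 0.13 in *rna15-1* (adjusted p = 0.044), where replicates 1 and 2 lay just below the highest wild-type array. Its paralog *PEX31* fell in *rna14-1* by 0.61 ± 0.14 and in *rna15-1* by 0.65 ± 0.14, the *rna14-1* value missing the threshold without *rna14-1* replicate 2 or 3 (adjusted p = 0.011 and 0.013). Against wild-type replicates 1 and 2 only, *PEX31* had −0.30 in *rna14-1* (adjusted p = 0.015) and −0.34 in *rna15-1* (adjusted p = 0.010). *PEX29* fell in *rna14-1* by 0.53 ± 0.08 and in *rna15-1* by 0.64 ± 0.08. *PEX11*, the elongation factor of the organelle, rose in *rna14-1* by 0.76 ± 0.06 and in *rna15-1* by 0.28 ± 0.06 (adjusted p = 1.6e-06 and 0.0022). Its relative *PEX25* rose in *rna14-1* by 0.32 ± 0.08 and in *rna15-1* by 0.37 ± 0.08, and in *rna14-1* missed the threshold without *rna14-1* replicate 2 or 3, or wild-type replicate 1 or 4 (adjusted p 0.010 to 0.025). *PEX27*, *PEX28* and *PEX32* passed the test in neither mutant, with log2 fold changes between −0.19 and 0.35. Against wild-type replicates 1 and 2 only, *PEX32* had 0.60 in *rna15-1* (adjusted p = 0.0043).

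Some of these calls depended on the setting of the fit, the omission of single arrays aside. In *rna14-1* 9 of the 28 members past the test missed it under at least 1 of the other settings, namely *PEX8*, *PEX10*, *PEX13*, *PEX22*, *PEX25*, *PEX31*, *PEX34*, *POX1* and *TES1*, while *FAA2*, as a rise, and *PEX4*, as a fall, came to pass it. In *rna15-1* 11 of the 25 did, *ECI1*, *PEX3*, *PEX5*, *PEX10*, *PEX11*, *PEX15*, *PEX18*, *PEX25*, *PEX31*, *POX1* and *TES1*, and *PEX17* and *PEX32* came to pass it. Of the values past the test, apart from *POX1*, *PEX4* and *PEX31*, *PEX13* in *rna14-1* and *TES1* in *rna15-1* moved by over 1.5 times. They had −0.28 and 0.36, each against wild-type replicates 1 and 2 only. *PEX4* in *rna15-1* had 0.28 with quantile normalisation (adjusted p = 0.0025), and *POX1* in *rna15-1* had 1.78 against wild-type replicates 1 and 2 only and 0.74 against replicates 3 to 5 only.

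**Figure D3:**
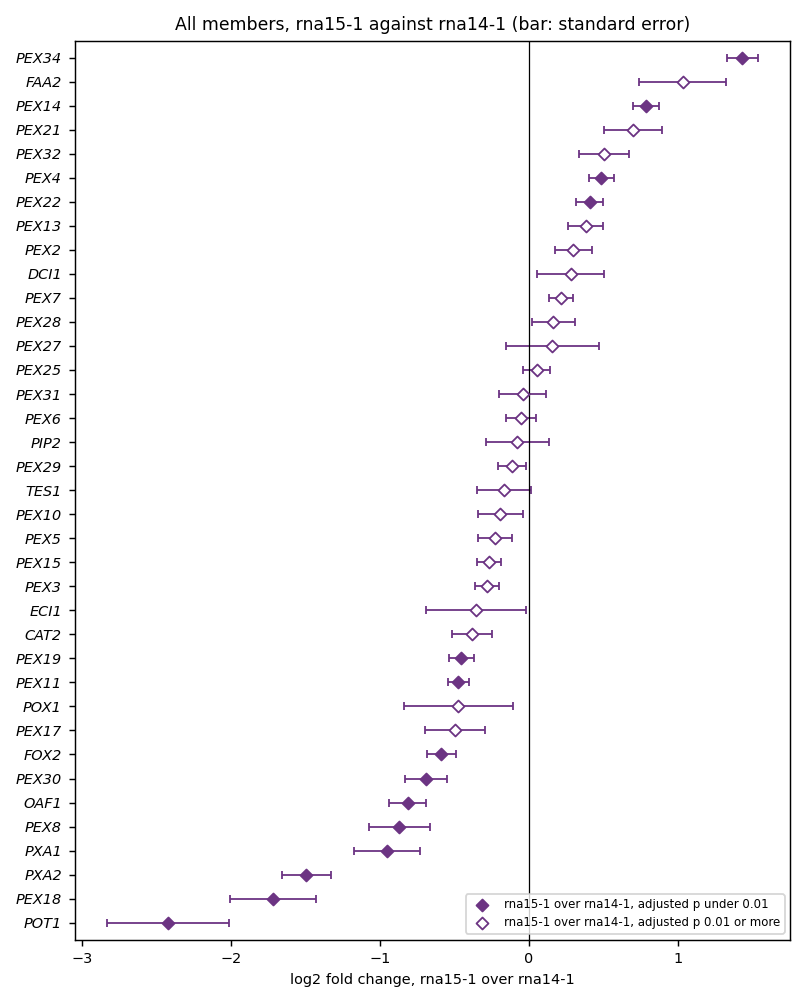
Log2 fold change (horizontal axis) of all 37 genes in *rna15-1* over *rna14-1*, ordered by value; bars are standard errors and filled symbols have an adjusted p under 0.01. *PEX34* lies at the top with 1.43, and *POT1* at the bottom with −2.42.

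The mutants were then compared with each other. In *rna15-1* 4 of the 37 genes were higher than in *rna14-1* and 10 lower at an adjusted p under 0.01, against 16% and 16.5% of all genes. The median log2 fold change was −0.17 over the 37 and 0.011 over all genes. Every *rna15-1* array lay above every *rna14-1* array for 8 members and below for 13 (29.5% and 29.1% of all genes). The methods' thresholds called *PEX34* up and *PXA2* down, 2 members in all (2.02%, 2.88% and together 4.9% of all genes). Among the fatty acid genes 5 of 12, *OAF1* included, were lower and 0 higher by limma (1 higher at an unadjusted p under 0.05). *POT1* differed by −2.42 ± 0.41, *PXA2* by −1.49 ± 0.16, *PXA1* by −0.95 ± 0.22, *OAF1* by −0.82 ± 0.12 and *FOX2* by −0.59 ± 0.10 (log2, *rna15-1* over *rna14-1*, adjusted p at most 0.0051, limma). *PXA1* missed the threshold without *rna14-1* replicate 1 or 3, or *rna15-1* replicate 1 or 2 (adjusted p 0.015 to 0.024).

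Of the 25 peroxins 4 were higher and 5 lower in *rna15-1* than in *rna14-1*, near the 16% and 16.5% of all genes. The higher ones were *PEX34* (1.43 ± 0.11), *PEX14* (0.79 ± 0.09), *PEX4* (0.49 ± 0.09) and *PEX22* (0.41 ± 0.09). The lower ones were *PEX18* (−1.72 ± 0.29), *PEX8* (−0.87 ± 0.20), *PEX30* (−0.69 ± 0.14), *PEX11* (−0.47 ± 0.07) and *PEX19* (−0.46 ± 0.08), all with an adjusted p of at most 0.0053 from limma. The co-receptor genes thus stood on opposite sides, although the difference in *PEX21*, 0.70 ± 0.19, missed the threshold (adjusted p = 0.012). It passed without *rna15-1* replicate 1 (0.85, adjusted p = 0.0086) or replicate 3 (0.42, adjusted p = 0.0028). *PEX8* missed the threshold without any *rna14-1* array or without *rna15-1* replicate 1 or 2 (adjusted p 0.012 to 0.025), *PEX30* without *rna14-1* replicate 1 or *rna15-1* replicate 1 or 2 (0.013 each), and *PEX22* without *rna14-1* replicate 2 or 3 or *rna15-1* replicate 1 (0.010 to 0.018). These 3 and *PXA1* also missed it with only the mutant arrays in the fit (adjusted p 0.016 to 0.035). *PEX32*, at 0.51 ± 0.17, had an adjusted p of 0.028 and passed with fewer wild-type arrays in the fit (0.0050 with replicates 3 to 5 and 0.0080 with replicates 1 and 2).

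**Figure D4:**
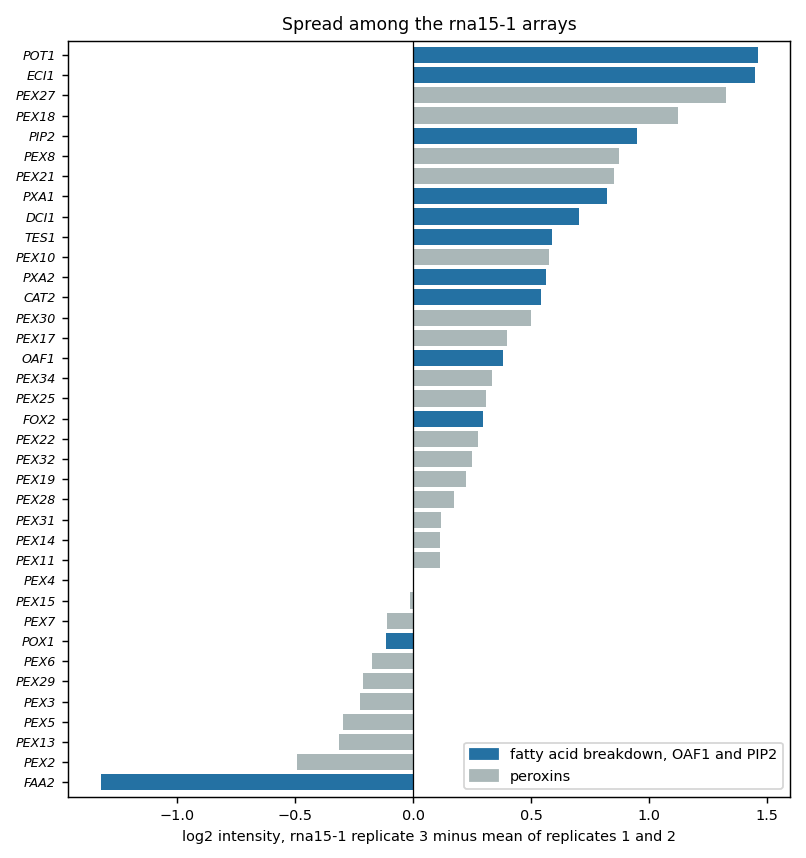
Difference in log2 intensity (horizontal axis) between *rna15-1* replicate 3 and the mean of *rna15-1* replicates 1 and 2, for each of the 37 genes, with the 12 fatty acid genes (*OAF1* and *PIP2* among them) in blue and the peroxins in grey. Of the 37, 26 were higher on replicate 3, *POT1* and *ECI1* most, and *FAA2* was 1.32 lower.

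Replicate 3 of *rna15-1* carried more of these transcripts than replicates 1 and 2. The median difference was 0.30 on the log2 scale over the 37 genes, 26 of which were higher, against −0.015 over all genes. It was 0.58 over the 12 fatty acid genes (10 higher) and 0.17 over the peroxins (16 of 25 higher). Relative to the wild-type mean, the median of the 12 fatty acid genes was 1.33, 1.17 and 1.23 on the *rna14-1* arrays and 0.66, 0.64 and 0.96 on the *rna15-1* arrays. A list of 20 other genes that glucose represses moved with them, at 1.41, 1.40 and 1.43 on the *rna14-1* arrays and 0.94, 0.96 and 1.64 on the *rna15-1* arrays, and its part in the result was not tested. Without replicate 3, 18 members rose and 6 fell in *rna15-1* against wild type. Against *rna14-1*, 8 members were then higher and 13 lower. The shares of all genes past the test without replicate 3 were not counted, so these counts cannot be read as particular to the members. *FAA2* (1.47), *PEX2* (0.46), *PEX13* (0.49) and *PEX21* (0.42) joined the higher ones, and *ECI1* (−0.84), *CAT2* (−0.56) and *PIP2* (−0.39) the lower ones (log2 fold changes, adjusted p at most 0.0046). For *FAA2* this leaves only the *rna15-1* arrays on which the genes of its chromosome V were raised, as given below.

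**Figure D5:**
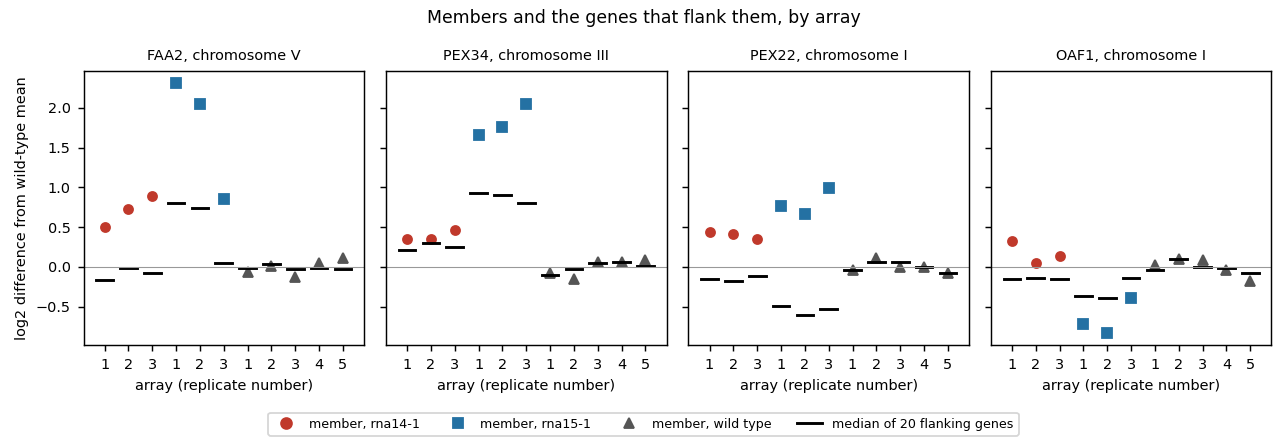
Log2 difference from the wild-type mean (vertical axis) of *FAA2*, *PEX34*, *PEX22* and *OAF1* (symbols) and the median of the 20 genes that flank each (black lines), on the *rna14-1*, *rna15-1* and wild-type arrays. The flanks of *FAA2* were raised on *rna15-1* replicates 1 and 2 and not on replicate 3, and those of *PEX34* on all 3.

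In *rna15-1* the genes around *FAA2*, *PEX34*, *PEX22* and *OAF1* had medians away from wild type. Gene order was taken from the R64 reference table, and up to 10 measured genes on each side were used. *FAA2* lies on chromosome V, whose 259 genes had a median of 0.72, 0.67 and 0.04 on *rna15-1* replicates 1, 2 and 3, relative to the wild-type mean, and medians between −0.02 and 0.04 on the *rna14-1* arrays. The 20 genes around *FAA2* had medians of 0.81, 0.75 and 0.05 on the *rna15-1* arrays. *FAA2* itself was high on replicates 1 and 2 of that strain, and on replicate 3 it was at the level of *rna14-1*. The 20 genes around *PEX34* on chromosome III had medians of 0.93, 0.90 and 0.81 on the *rna15-1* arrays and of 0.21, 0.30 and 0.25 on the *rna14-1* arrays. The gene next to *PEX34* on its 5′ side, read in the other direction, is *KAR4*, whose product regulates transcription during mating. *KAR4* rose by 3.56 in *rna15-1* and by 1.22 in *rna14-1*. On chromosome I, *PEX22* rose while the 20 genes around it had, as their median in *rna15-1*, a log2 fold change of −0.62, and *OAF1* fell among genes with a median of −0.37. The flanks of *PEX22* and *OAF1* overlap. All measured genes of chromosome I had medians of −0.04, −0.09 and 0.02 on the *rna15-1* arrays. The part of these regional shifts in the members' values was not tested. In *rna15-1* the flanking median log2 fold change was 0.45 around *PEX21*, against 0.44 around *FAA2*. It was 0.36 around *PEX27*, in size near the −0.37 around *OAF1*. Flanking medians lay between −0.28 and 0.29 around the remaining members. In *rna14-1* they lay between −0.24 and 0.46 around all 37.

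The nearest measured gene on either side of each member, which is not always the adjacent gene, was counted as well. Next to the 23 members that rose in *rna14-1*, 7 neighbours on the 5′ side rose and 12 fell (median log2 fold change −0.44), and 10 on the 3′ side rose and 5 fell (0.22), where 32.8% of all genes rose and 29.5% fell. Next to the 20 members that rose in *rna15-1*, 6 neighbours rose and 8 fell on the 5′ side (−0.27), and 6 rose and 5 fell on the 3′ side (0.09), where 28.2% of all genes rose and 24.7% fell. The coding length, by the same table, had a median of 1152 bases for the risen and 1389 bases for the 5 fallen members in *rna14-1*. In *rna15-1* it was 1038 bases for the risen and 1665 bases for the 5 fallen members. These are descriptions of few genes and were not tested.

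Other genes of peroxisomal metabolism were counted for comparison, and their counts stand against the shares of all genes given above. In *rna14-1* 9 of 16 further matrix enzymes rose and 2 fell, and *rna15-1* had 5 up and 2 down (median log2 fold change 0.43 in *rna14-1*, 0.26 in *rna15-1*). The largest changes in *rna14-1* were in *PCD1*, a CoA diphosphatase (log2 fold change 2.70 in *rna14-1*, 2.05 in *rna15-1*), *STR3*, a cystathionine beta-lyase (1.62 in *rna14-1*, 1.79 in *rna15-1*), and *IDP3*, the isocitrate dehydrogenase that supplies NADPH to the peroxisome (1.51 in *rna14-1*, 0.68 in *rna15-1*). *SPS19*, the dienoyl-CoA reductase that works beside Dci1 and Eci1 on unsaturated fatty acids, rose by 0.33 in *rna14-1* and fell by 1.09 in *rna15-1*, and the mutants differed by −1.42 ± 0.11 (*rna15-1* over *rna14-1*). *GPX1*, a glutathione peroxidase, had 1.10 in *rna14-1* and 0.96 in *rna15-1*, and rose in both. *AAT2*, an aspartate aminotransferase, rose by 0.40 in *rna15-1*, and *CTA1*, the peroxisomal catalase, by 1.16 in *rna14-1*. *LPX1*, a peroxisomal lipase, fell in *rna14-1* by 0.59 and in *rna15-1* by 0.39, and *MDH3*, the peroxisomal malate dehydrogenase, fell by 0.79 in *rna14-1*. Of 10 genes of peroxisome division, inheritance and turnover, with the carrier gene *ANT1* among them, 2 rose and 3 fell in each mutant (median log2 fold change −0.11 in *rna14-1*, −0.04 in *rna15-1*). In *rna14-1*, *INP1* (0.86), which holds peroxisomes in the mother cell, and *MDV1* (0.41) rose, and *ANT1* (−1.12), which encodes the ATP carrier of the peroxisomal membrane, *ATG36* (−0.61) and *MYO2* (−0.42) fell. In *rna15-1*, *DNM1* (0.47) and *CAF4* (0.31) rose, and *VPS1* (−0.84), a dynamin-like protein of peroxisome fission, *ANT1* (−0.77) and *INP2* (−0.39) fell.

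The acetyl units made by beta-oxidation are passed on by the carnitine shuttle and by acetyl-CoA enzymes, and of 8 such genes 6 rose and 1 fell in each mutant (median log2 fold change 1.32 in *rna14-1*, 1.42 in *rna15-1*). *AGP2*, a plasma membrane carrier for carnitine, rose in *rna14-1* by 2.77 and in *rna15-1* by 1.25, and *CIT3*, a mitochondrial citrate synthase, by 2.15 in *rna14-1* and, in *rna15-1*, by 2.34. *ACS1*, an acetyl-CoA synthetase, rose in *rna14-1* by 2.04 and in *rna15-1* by 1.72, and *ICL1*, the isocitrate lyase of the glyoxylate cycle, by 1.35 in *rna14-1* and, in *rna15-1*, by 1.78. *ICL1* and *YAT2*, another gene of this list, lie on chromosome V, whose genes had medians of 0.72, 0.67 and 0.04 on *rna15-1* replicates 1, 2 and 3. On these arrays *ICL1* had log2 intensities of 10.40, 10.55 and 9.92. The part of the regional shift in these values was not tested. The gene that fell was *YAT1*, a mitochondrial carnitine acetyltransferase on chromosome I. It was not above background on any of the 3 *rna15-1* arrays, where its mean log2 intensity was 3.98 against 10.25 in wild type, a decrease of at least 61.6-fold with the *rna15-1* arrays set to background (adjusted p = 3.7e-10, limma). In *rna14-1* it fell by 0.82. RNA signal cannot tell a lost gene from a silent one, and whether *YAT1* was present in the *rna15-1* cells was not tested.

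In *rna14-1* 6 of 13 regulators of oleate-induced and glucose-repressed genes rose and 4 fell, and *rna15-1* had 4 up and 5 down (median log2 fold change 0.08 in *rna14-1*, −0.01 in *rna15-1*). *ADR1*, a transcriptional activator of peroxisomal and ethanol-use genes, rose most, by 2.41 ± 0.20 in *rna14-1* and, in *rna15-1*, by 1.81 ± 0.20. *SIP4*, an activator of gluconeogenesis, rose by 1.95 in *rna14-1*, and was lower in *rna15-1* than in *rna14-1* by 1.38 ± 0.22 (log2 fold change −1.38). *RDS2*, a regulator of gluconeogenesis, fell in *rna14-1* by 1.77 and in *rna15-1* by 1.19, and *SIP1*, a subunit of the Snf1 kinase, by 1.68 in *rna14-1* and, in *rna15-1*, by 1.39. *CAT8*, another activator of gluconeogenesis, rose in *rna14-1* by 1.39 and in *rna15-1* by 0.88, and *MIG1*, the glucose repressor, by 1.07 in *rna14-1* and, in *rna15-1*, by 0.68. *GLC7*, a protein phosphatase gene on chromosome V, rose in *rna14-1* by 0.63 and in *rna15-1* by 0.73. It had 12.73, 12.62 and 12.21 on the *rna15-1* arrays, and the part of the chromosome V shift in this was not tested. *REG1*, which encodes a regulatory subunit of the phosphatase, fell by 0.94 in *rna15-1*. The genes of the Snf1 kinase and its activating subunit also fell in both mutants, *SNF1* by 0.40 in *rna14-1* and 0.77 in *rna15-1*, and *SNF4* by 0.49 in each. *OAF3*, a repressor of oleate-induced genes, rose by 0.90 in *rna14-1*. The shares of these regulators that fell in *rna14-1* and rose in *rna15-1* were near those of all genes (29.5% and 28.2%). In *rna14-1* 15 of the 20 glucose-repressed genes mentioned above rose and 1 fell, and *rna15-1* had 12 up and 2 down (median log2 fold change 1.33 in *rna14-1*, 1.23 in *rna15-1*). The lists shared genes: *ACS1*, *ICL1* and *YAT2* were also counted with the acetyl-unit genes, and *CTA1* and *MLS1* with the matrix enzymes. *GUT2*, the mitochondrial glycerol-3-phosphate dehydrogenase, rose in *rna14-1* by 3.30 and in *rna15-1* by 1.69, and *CYB2*, a lactate dehydrogenase, by 2.97 in *rna14-1* and, in *rna15-1*, by 1.38. *REG2*, a phosphatase subunit, rose in *rna14-1* by 2.63 and in *rna15-1* by 1.21, and *HXK1*, a hexokinase, by 1.30 in *rna14-1* and, in *rna15-1*, by 1.86. *GUT1*, the glycerol kinase, fell in *rna14-1* by 0.71 and in *rna15-1* by 0.65, and *NDE2*, a mitochondrial NADH dehydrogenase, rose by 0.50 in *rna14-1* and fell by 0.61 in *rna15-1*. In *rna15-1* 9 of the 20 were lower than in *rna14-1* and 1, *SUC2*, was higher.

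Genes of fatty acid synthesis and cytosolic activation went the other way from the genes of breakdown. In *rna14-1* 1 of 14 measured rose and 9 fell, and *rna15-1* had 0 up and 6 down (median log2 fold change −0.62 in *rna14-1*, −0.34 in *rna15-1*). No member of this list had a positive log2 fold change in *rna15-1* (limma, 0 also at an unadjusted p under 0.05). The elongase genes *ELO1* and *ELO2* fell by 1.36 and 1.20 in *rna14-1* and by 0.84 and 0.82 in *rna15-1*, and the dehydratase gene *PHS1* fell by 1.26 in *rna14-1*. *FAA4*, an acyl-CoA synthetase of the cytosol, fell in *rna14-1* by 0.76 and in *rna15-1* by 1.06. Its relative *FAA1* was the gene that rose, by 1.26 ± 0.14 in *rna14-1*, and in *rna15-1* it was lower than in *rna14-1* (log2 fold change −1.29 ± 0.16).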

How the data were processed

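The authors prepared RNA from the 3 strains, hybridised it to Affymetrix yeast arrays and, per the labels and methods, processed the scans with GCOS and RMA, for which the sources used here give no versions. The deposited values are log2 intensities normalised over all arrays by the authors, and they were used as deposited. Normalisation over arrays makes every change relative to the average gene. Probe sets were named by the platform annotation and matched to the R64 gene table. Of 10928 probe sets 7244 had 1 name, 1 had several and 3683 had none, and 5498 of cerevisiae genes gave 5449 genes, the brightest probe set standing for each of the 47 genes with several. Background was the 95th percentile of the 1746 other named probe sets. Where no array of a group was above it, only a bound of the fold is given.

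In R 4.3.3 with limma 3.58.1 (lmFit and eBayes) all 11 arrays were fitted with 1 coefficient per strain, and p-values were adjusted by Benjamini-Hochberg over all 5449 genes, with only the rows used here reported. The procedure was tested on simulated data. Every member is named, with the values of all arrays for members that changed by over 1 on the log2 scale at an adjusted p under 0.01, for the core enzymes and for *OAF1* and *PIP2*. Of the other lists, up to 3 genes per mutant with the largest change past the test are named, with every gene of a count of 5 or fewer; *CTA1*, *OAF3*, *PEX34*'s neighbour *KAR4* and a few others were named after their values were seen. The members and lists were chosen with earlier results of these data known. The alternatives changed the wild-type arrays, normalisation, background, filters, probe sets, groups fitted, variance model, threshold and replicate block, and left out each array in turn. Array number limits precision. No promoter or protein sequences were used here, and positions are left out because the build behind the probe sets is not stated. Plots came from Python 3.11.15, matplotlib 3.10.9.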

Additional observations from a re-analysis of the deposited data

Results flagged for a closer look

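In wild type 2 of the 37 genes had an array that stood apart from the other 4 by Dixon's criterion (gap over range above 0.71), where chance alone gives about 1 in 20. *PEX11* was 10.98 on wild-type replicate 3, with the nearest other array at 10.86. *PEX29* was 9.49 on wild-type replicate 5, with the nearest other at 9.71. Without the array in question, *PEX11* and *PEX29* kept their direction and their side of the threshold in both mutants.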

How the results depend on the processing

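Under the alternatives no value past the threshold changed sign. Of 28 members past the threshold in *rna14-1* against wild type, 19 passed under every alternative, of 25 in *rna15-1* 14 did, and of 14 between the mutants 10 did, where a fit with fewer arrays also has less power. The shares of all genes were not counted under the alternatives, so the counts below cannot be read as particular to the members. With wild-type replicates 1 to 3 only, 3 members fell in *rna14-1* and 12 rose in *rna15-1*. With wild-type replicates 1 and 2 only, 3 fell and 3 were called in *rna14-1*, and 1 was called in *rna15-1*. With only the groups compared in the fit, 13 rose in *rna15-1* and 1 was called between the mutants. At an adjusted p under 0.05, 9 were higher in *rna15-1* than in *rna14-1*. Leaving out each array in turn gave 3 to 8 called and 3 to 5 fallen members in *rna14-1*, and 2 to 5 called and 3 to 8 higher members between the mutants. Deviations of arrays from their strain means correlated at −0.138 to 0.344 for same-numbered arrays, against −0.361 to 0.320 for different numbers. With 3 or 5 arrays per strain, this cannot tell whether the numbers pair cultures. With the replicate number as a block, 20 rose, 3 fell and 5 were called in *rna14-1*, 13 rose, 4 fell and 3 were called in *rna15-1*, and 3 were higher, 7 lower and 1 called between the mutants, and *PEX13* had 0.0193 in *rna15-1*. Signs changed only in values that did not pass. In *rna14-1*, *PEX32* (0.0980), *PEX4* (0.0201) and *PEX28* (0.122) did so with wild-type replicates 1 and 2 only, and *PIP2* (0.0202) with replicates 3 to 5 only. In *rna15-1*, *PEX13* did so with wild-type replicates 1 to 3 (0.0193) or 1 and 2 (0.0987), and *PEX28* with replicates 3 to 5 (−0.0777) or quantile normalisation (−0.0272), which also gave *POX1* 0.157 between the mutants. Leaving out single arrays gave, in *rna14-1*, −0.0029 to 0.116 for *PEX14*, −0.212 to 0.0010 for *PEX28*, −0.0628 to 0.0179 for *PEX4* and −0.0586 to 0.0251 for *PIP2*. In *rna15-1* it gave −0.420 to 0.0647 for *PIP2*, −0.112 to 0.0048 for *PEX19*, −0.0941 to 0.612 for *PEX27*, −0.107 to 0.0498 for *PEX13* and −0.234 to 0.225 for *PEX8*. Between the mutants it gave −0.394 to 0.0906 for *PIP2*, −0.0914 to 0.0042 for *PEX6*, −0.286 to 0.421 for *PEX27* and −0.0514 to 0.117 for *PEX25*. The cause of these changes was not tested. *PEX18* and *POX1*, and *POT1* on some arrays, lie near background in wild type, which limits their fold changes.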
